A study of Mus musculus with 8 samples.

Results

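The digestive enzymes of the pancreas, the kallikreins and the protease families related to them were followed in 8 HM-1 tumours grown under the skin of mice. Genes were chosen by symbol, as trypsinogens and other Prss genes, chymotrypsinogens, pancreatic elastases, kallikreins, Tmprss proteases, A- and B-type carboxypeptidases, pancreatic lipases, colipase, amylases, Reg genes and Spink inhibitors. Of 11667 genes with a named probe set of their own, 101 met the rule. They were divided by known site of expression into 17 acinar genes, 7 genes that the pancreas shares with other organs (6 Reg genes and Klk1) and the 77 other genes, called non-pancreatic here. The name is a label for all genes outside the first 2 groups, and expression of the 77 in pancreas was not checked. They include 11 Klk1b genes and Amy1, some of which followed the acinar genes. HM-1 cells, an ovarian cancer line of the mouse, were injected into the right flank of B6C3F1 mice. Mice were given an anti-VEGF antibody (4 tumours, numbered 1 to 4) or rat IgG as the isotype control (4 tumours, numbered 1 to 4). Both were injected intraperitoneally through the experiment, and the labels give day 3 after cell injection as the start where the study's methods give a day later. Tumours of both groups were taken at a long diameter of 1.5 cm, and each was measured on 1 Affymetrix mouse transcriptome array. All tumours came from a single cell line, and the labels do not say more about how the replicates were made, so the p-values measure the spread between these tumours.

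Acinar cells of the pancreas make digestive enzymes and store most of them as inactive precursors in zymogen granules. Trypsin, once released from trypsinogen in the gut, activates the other precursors, and the inhibitor Spink1 holds back trypsin that is set free too early. The transcription factor PTF1 binds a bipartite element in the promoters of many acinar genes. Tissue kallikreins are a neighbouring branch of the trypsin-like serine proteases, and the mouse has a large cluster of them, many of which are known from salivary gland. Acinar cells belong to the pancreas, and the labels name only the subcutaneous tumour as the source of the RNA. Epithelial keratins were present on every array, and the cells that made them cannot be told from bulk RNA. Krt18 stood at 11.15, 10.97, 11.07 and 11.12 on anti-VEGF arrays 1 to 4, against 10.35, 10.22, 10.49 and 10.68 on control arrays 1 to 4 (log2 expression). Epcam, another epithelial marker, was dim, with 3.52 to 4.41 on anti-VEGF arrays and 3.99 to 4.74 on control arrays.

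All levels are log2 expression values as deposited, and a difference is anti-VEGF minus control on that scale. The arrays differed in spread. The SD over genes was 1.99 to 2.08 on anti-VEGF arrays and 1.12 to 1.66 on control arrays, while the brightest gene of each array lay between 12.96 and 13.26. Over all genes the median difference was -0.44, and it was -0.02 after the arrays were quantile-normalised once more. Among genes of the lowest tertile by level it was -1.07, and limma called 90.3% of that tertile lower at an adjusted p under 0.05. Over all genes limma called 46.6% lower and 19.1% higher, whereas after quantile normalisation it called 4.41% lower and 7.4% higher. Values of dim genes therefore depend on the setting. Olfactory and vomeronasal receptor genes, 1267 in number, served as a mark of the dim end of each array.

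The acinar genes were among the brightest of the control arrays and were lower in the anti-VEGF tumours, to a very different degree from tumour to tumour. Their mean level was 9.76, 4.37, 4.94 and 7.15 on anti-VEGF arrays 1 to 4, against 11.10, 10.36, 9.68 and 10.90 on control arrays 1 to 4. Anti-VEGF array 1 thus lay within the range of the control arrays, array 4 lay below them, and arrays 2 and 3 lay lowest. The mean of the 77 non-pancreatic genes was 4.44, 4.0, 4.0 and 4.07 on the anti-VEGF arrays, against 5.27, 4.78, 4.89 and 4.85 on the control arrays. The acinar mean exceeded the non-pancreatic mean by 5.33, 0.37, 0.94 and 3.08 in the anti-VEGF tumours, and by 5.83, 5.58, 4.79 and 6.05 in the control tumours. This gave 2.43 ± 2.25 in anti-VEGF tumours and 5.56 ± 0.55 in control tumours (SD, n = 4 each), a difference of -3.13 with groups that overlapped through anti-VEGF array 1. Without that array the difference was -4.10. After quantile normalisation the excess was 4.96, 0.31, 0.74 and 2.49 in anti-VEGF tumours and 5.89, 5.68, 5.49 and 5.90 in control tumours, and no value of the groups overlapped. In bulk tumour RNA, fewer cells of a type and less RNA per cell cannot be told apart.

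**Figure D1:**
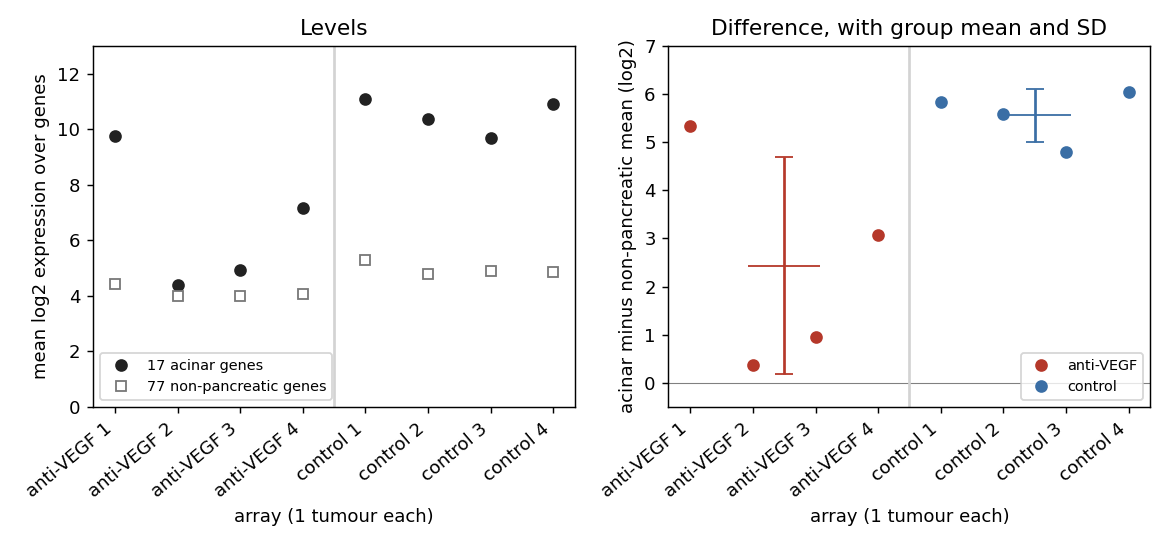
Mean log2 expression of the 17 acinar genes (filled circles) and the 77 non-pancreatic genes (open squares) on each array, left, and the acinar minus the non-pancreatic mean, right, with the group mean and SD (n = 4 each). The acinar mean falls between 4.37 and 9.76 on the anti-VEGF arrays and between 9.68 and 11.10 on the control arrays, while the non-pancreatic mean stays between 4.0 and 5.27 on all 8.

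The order of the anti-VEGF tumours was nearly the same from one acinar gene to the next. Array 1 was the highest and array 4 the second highest of the group for 17 of 17 genes, and array 2 was the lowest for 14 of 17. Among the 77 non-pancreatic genes, array 1 was also the highest for 67, array 4 second for 37 and array 2 lowest for 26. Among control arrays, array 1 was highest and array 3 lowest for 17 of 17 acinar genes, against 44 and 25 of 77 non-pancreatic genes. Control array 3 also had the smallest SD over genes of the 8 arrays (1.12). Its acinar mean after quantile normalisation was 10.25, just below control array 2 at 10.31. After cyclic loess it was 11.19, above control arrays 2 and 4 (10.47 and 10.88). The place of control array 3, and overlaps that rest on it, thus depend on the setting. Anti-VEGF arrays 2, 3 and 4 lay below every control array for all 17 acinar genes, but also for 62 of 77 non-pancreatic genes. This was not counted over all genes. Of all genes, limma called 45.7% lower without anti-VEGF array 1. With all 8 arrays the groups did not overlap, in either direction, for 61.3% of all genes. Anti-VEGF array 1 lay above control array 3 for 9 of 17 acinar genes and for 16 of 77 non-pancreatic genes. Against the control mean of each gene, the median difference of the acinar genes was -0.76, -6.47, -6.10 and -3.52 on anti-VEGF arrays 1 to 4. Genes of 1 array share its RNA, so this common order describes 8 tumours and not 17 separate measurements.

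limma called 17 of the 17 acinar genes lower, with a median difference of -4.29 and a range of -4.75 to -2.55, where 46.6% of all genes were called lower. After quantile normalisation it called 12 of 17 lower with a median of -4.26, where 4.41% of all genes were called. The groups did not overlap for 8 of 17 acinar genes, where they did not overlap for 61.3% of all genes. With anti-VEGF array 1 left out, 17 of 17 were called lower, against a background of 45.7% lower and 17.1% higher. With control array 1 left out instead, 14 of 17 were called.

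**Figure D2:**
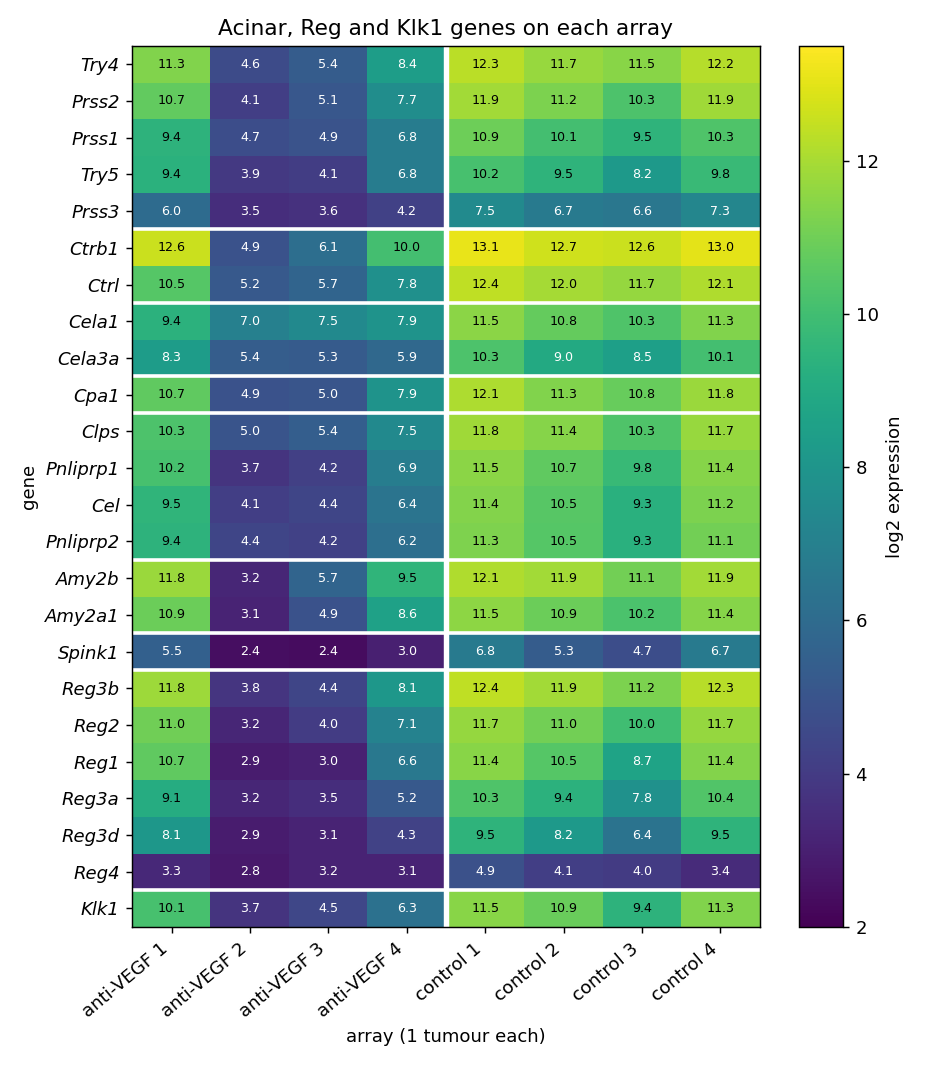
Log2 expression of the 17 acinar genes, 6 Reg genes and Klk1 (rows, grouped by family) on the 4 anti-VEGF and 4 control arrays (columns). Anti-VEGF arrays 2 and 3 are the darkest columns, with Ctrb1 at 4.91 and 6.14, and Reg4 is dim on all arrays.

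Within an array, most acinar genes ranked near the top on the control arrays and on anti-VEGF array 1, and near the middle on anti-VEGF arrays 2 and 3. The median acinar gene stood at percentile 98.6, 47.2, 58.8 and 88.6 of the genes on anti-VEGF arrays 1 to 4, against 99.5, 99.3, 99.3 and 99.5 on control arrays 1 to 4. The 95th percentile of the receptor genes on the same array was exceeded by 17, 12, 15 and 16 of the 17 acinar genes on anti-VEGF arrays 1 to 4, and by 17, 17, 16 and 17 on control arrays 1 to 4. This mark was 4.17, 3.81, 3.76 and 3.79 on anti-VEGF arrays 1 to 4. It was higher on control arrays 1 to 4, at 5.09, 4.79, 5.47 and 4.56, so the counts of the groups are not like for like. The dimmest acinar gene was Spink1, at 5.51, 2.41, 2.39 and 3.03 on the anti-VEGF arrays and 6.75, 5.34, 4.70 and 6.72 on the control arrays. On anti-VEGF arrays 2 and 3, Cela1 was the brightest of the 17, at percentile 84.3 and 88.6.

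**Figure D3:**
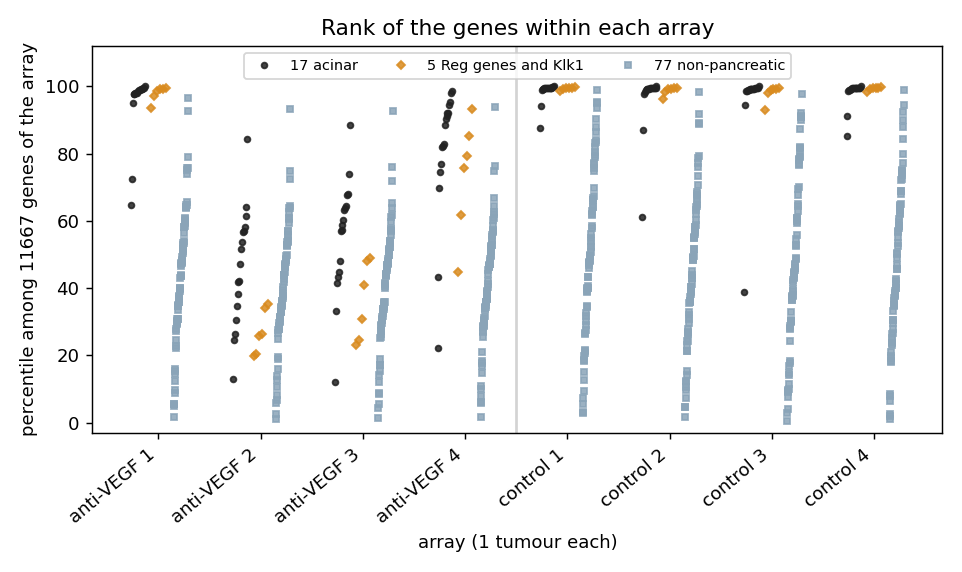
Percentile of each gene among the 11667 genes of its array, for the 17 acinar genes (black), the 5 bright Reg genes with Klk1 (orange) and the 77 non-pancreatic genes (blue). The acinar median is 47.2 on anti-VEGF array 2 and 99.5 on control array 1.

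The promoters of the acinar genes were read from RefSeq (GRCm38.p6) as the 250 bases before each annotated start, and 14 of the 17 genes had one. CACCTG, the E-box arm of the PTF1 element, was found on either strand in 10 of 14 acinar windows (71.4%), against 22 of 67 windows of the non-pancreatic genes (32.8%) and 17.2% of all 32851 windows. TTTCCC, the other arm of the element, was found in 7 of 14 (50%), against 20.9% of non-pancreatic windows and 21.9% of all. TATAAA was found in 6 of 14 (42.9%), against 7.46% of non-pancreatic windows and 12.4% of all. CACCTG and TTTCCC were both present, at any spacing and on either strand, in 5 acinar windows (35.7%). These were the windows of Cel, Cela1, Cela3a, Prss1 and Prss2. The share was 4.48% of non-pancreatic windows and 3.61% of all. The sequences were not particular to the acinar genes. Of the 7 windows of genes shared with the pancreas, 6 held CACCTG (85.7%), that of Reg4 among them. TTTCCC was found in 3 of these 7 (42.9%), TATAAA in 3 (42.9%), and CACCTG with TTTCCC in 2 (28.6%). No 2 matches overlapped in the windows printed. These matches describe letters and no binding was measured. Spacing and orientation were not required, so a window with both sequences need not hold a PTF1 element. Windows with both sequences are shown for the lipase Cel, the elastase Cela3a and the trypsinogens Prss1 and Prss2. They stand for 3 of the enzyme classes that were lower together. Capitals mark CACCTG and TTTCCC or their reverse complements CAGGTG and GGGAAA, the sequence runs with the gene towards its start, and the strand is that of the gene.
Cel, chr2:28563404-28563653, minus strand: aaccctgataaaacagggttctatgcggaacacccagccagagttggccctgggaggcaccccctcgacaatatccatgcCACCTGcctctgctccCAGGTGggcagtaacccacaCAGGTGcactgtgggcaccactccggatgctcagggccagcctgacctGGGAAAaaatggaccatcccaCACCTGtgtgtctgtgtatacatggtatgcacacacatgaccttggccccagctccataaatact
Cela3a, chr4:137409792-137410041, minus strand: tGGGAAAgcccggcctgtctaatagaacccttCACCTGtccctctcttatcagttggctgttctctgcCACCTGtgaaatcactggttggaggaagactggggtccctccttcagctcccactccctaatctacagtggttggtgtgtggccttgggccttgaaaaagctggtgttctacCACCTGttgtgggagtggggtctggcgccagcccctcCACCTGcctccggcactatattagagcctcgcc
Prss1, chr6:41458680-41458929, plus strand: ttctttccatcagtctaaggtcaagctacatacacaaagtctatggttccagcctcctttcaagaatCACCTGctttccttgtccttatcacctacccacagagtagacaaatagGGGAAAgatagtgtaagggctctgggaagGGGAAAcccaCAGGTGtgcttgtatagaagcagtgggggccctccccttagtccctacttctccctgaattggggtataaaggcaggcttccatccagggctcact
Prss2, chr6:41521526-41521775, plus strand: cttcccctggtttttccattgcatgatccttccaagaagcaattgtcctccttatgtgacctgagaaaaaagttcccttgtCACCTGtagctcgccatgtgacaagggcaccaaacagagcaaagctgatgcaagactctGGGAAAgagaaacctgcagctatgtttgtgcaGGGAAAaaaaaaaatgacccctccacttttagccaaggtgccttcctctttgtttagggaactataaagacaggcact

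The 5 trypsinogens, precursors of trypsin, were all called lower on the deposited values, where 46.6% of all genes were called lower. Try4, the brightest, had 11.31, 4.62, 5.37 and 8.40 on anti-VEGF arrays 1 to 4, against 12.31, 11.71, 11.45 and 12.22 on control arrays 1 to 4. The groups did not overlap, and the difference was -4.50 (SE 1.17, limma adjusted p = 0.0076), with an adjusted p of 0.0503 after quantile normalisation. Prss2, in contrast, overlapped through anti-VEGF array 1, which at 10.74 lay above control array 3 at 10.28. Its difference was -4.42 (SE 1.15, limma adjusted p = 0.0078). Prss1, shown above beside Prss2, had 9.45, 4.72, 4.92 and 6.83 in anti-VEGF tumours, against 10.94, 10.08, 9.46 and 10.34 in control tumours, a difference of -3.73 (SE 0.87, limma adjusted p = 0.0047). Prss3 was the dimmest trypsinogen, at 3.50 to 6.04 on anti-VEGF arrays and 6.56 to 7.50 on control arrays. Try5 differed by -3.37, and its call was lost without control array 1 (limma adjusted p = 0.0528). Trypsinogen genes are closely similar in sequence, and signal may be shared between their probes, so the value of a single one is uncertain.

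The chymotrypsinogens, which trypsin activates, held the brightest member of all. Ctrb1 had 12.59, 4.91, 6.14 and 10.05 on anti-VEGF arrays 1 to 4, against 13.11, 12.68, 12.58 and 13.02 on control arrays 1 to 4, close to the brightest gene of those arrays. Its groups overlapped by a narrow margin, through anti-VEGF array 1 and control array 3. The difference was -4.43 (SE 1.34, limma adjusted p = 0.015, and 0.074 after quantile normalisation). Ctrl, a chymotrypsin-like enzyme, had 10.47, 5.20, 5.69 and 7.79 in anti-VEGF tumours, against 12.39, 11.96, 11.66 and 12.13 in control tumours. Here every anti-VEGF tumour lay below every control tumour. Its difference of -4.75 (SE 0.92, limma adjusted p = 0.0023) was the largest among the acinar genes on the deposited scale.

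The elastases, which cut elastin and other proteins, had smaller differences than most acinar genes and less spread between the anti-VEGF tumours. Cela1 had 9.40, 7.0, 7.47 and 7.89 on anti-VEGF arrays 1 to 4, against 11.50, 10.76, 10.32 and 11.32 on control arrays 1 to 4. The groups did not overlap, and its difference of -3.04 (SE 0.46) had the smallest adjusted p of the acinar genes (limma adjusted p = 0.0011, and 0.015 after quantile normalisation). Cela3a, whose promoter is printed above, had 8.34, 5.39, 5.32 and 5.86 in anti-VEGF tumours and 10.30, 8.99, 8.48 and 10.07 in control tumours. Its groups did not overlap either, and the difference was -3.23 (SE 0.64, limma adjusted p = 0.0025). Cpa1, a carboxypeptidase that removes residues from the end of peptides, had 10.70, 4.89, 5.02 and 7.90 in anti-VEGF tumours, against 12.10, 11.34, 10.80 and 11.78 in control tumours. It differed by -4.38 (SE 1.06, limma adjusted p = 0.0057).

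The 4 fat-digesting genes had similar differences, and anti-VEGF array 1 was the highest and array 4 the second highest of the group for each. Cel, the bile salt-activated lipase, had 9.52, 4.12, 4.42 and 6.41 on anti-VEGF arrays 1 to 4, against 11.36, 10.50, 9.28 and 11.23 on control arrays 1 to 4. Anti-VEGF array 1 was above control array 3 and below the other control arrays. Clps, colipase, the cofactor of pancreatic lipase, had 10.29, 4.99, 5.41 and 7.47 in anti-VEGF tumours, against 11.85, 11.41, 10.32 and 11.74 in control tumours, and its groups did not overlap. The lipase-related genes Pnliprp1 and Pnliprp2 lay between 3.74 and 10.17 and between 4.24 and 9.43 on anti-VEGF arrays, against 9.76 to 11.50 and 9.31 to 11.29 on control arrays. The lowest anti-VEGF array was array 2 for Cel, Clps and Pnliprp1 and array 3 for Pnliprp2. All 4 were called lower by limma on the deposited values, with differences of -4.60 to -4.29, where 46.6% of all genes were called lower. They were called again after quantile normalisation, where 4.41% of all genes were called lower.

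The amylases, which cleave starch, had the widest range between anti-VEGF tumours of the acinar genes. Amy2b had 11.78, 3.24, 5.68 and 9.54 on anti-VEGF arrays 1 to 4, against 12.14, 11.89, 11.07 and 11.92 on control arrays 1 to 4. Anti-VEGF array 1 was at the control mean, and array 2 differed from that mean by -8.51. The group difference was -4.19 (SE 1.45, limma adjusted p = 0.027, and 0.10 after quantile normalisation). The call for Amy2b was lost when anti-VEGF array 2 or 3 or control array 1, 2 or 4 was left out, with adjusted p of 0.0506 to 0.0743. Amy2a1 differed by -4.14 (SE 1.34, limma adjusted p = 0.020), and its call was lost without anti-VEGF array 3 (0.0592) or control array 1 (0.0595). Mouse amylase genes are near-identical copies, so their probe sets may not separate them. Amy1, the salivary and liver amylase, was counted as non-pancreatic but had the same order of anti-VEGF tumours at a lower level, with 6.54, 3.82, 4.27 and 4.46 in anti-VEGF tumours and 6.97, 6.17, 5.97 and 6.99 in control tumours. Its difference was -1.75 (SE 0.51, limma adjusted p = 0.013, and 0.028 after quantile normalisation).

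Spink1, the trypsin inhibitor that acinar cells secrete with the enzymes, differed by -2.55 (SE 0.69, limma adjusted p = 0.0091), and the call was lost after quantile normalisation (0.090). Its groups overlapped, because anti-VEGF array 1 exceeded control arrays 2 and 3.

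Genes that the pancreas shares with other organs followed the acinar pattern, except Reg4. Reg genes code for secreted lectin-like proteins, first known from regenerating islets and from pancreatitis. Reg3b had 11.80, 3.77, 4.41 and 8.10 on anti-VEGF arrays 1 to 4, against 12.40, 11.90, 11.22 and 12.28 on control arrays 1 to 4. Its difference was -4.93 (SE 1.41, limma adjusted p = 0.012, and 0.064 after quantile normalisation). On the deposited values this was the largest decrease among the 11667 genes. After quantile normalisation it was -4.63, and the decreases of Reg1 (-4.69), Reg2 (-4.67), Klk1 (-4.66) and Pnliprp1 (-4.64) were larger. Reg1 had 10.69, 2.90, 3.05 and 6.60 in anti-VEGF tumours, against 11.45, 10.48, 8.66 and 11.36 in control tumours, and the difference of -4.68 lost its call without anti-VEGF array 3 (limma adjusted p = 0.0528) or control array 1 (0.0576). All 5 bright Reg genes were in the same order on the anti-VEGF arrays, 1 above 4 above 3 above 2, and for all 5 anti-VEGF array 1 lay above control array 3. They were called lower on the deposited values, where 46.6% of all genes were called lower. After quantile normalisation 2 of the 5, Reg3a and Reg3d, were called, where 4.41% of all genes were called lower. Of these 5 genes, 5, 0, 2 and 5 exceeded the 95th percentile of the receptor genes on anti-VEGF arrays 1 to 4, and all 5 did on each control array. Reg4, an intestinal member, stood at 2.77 to 3.31 on anti-VEGF arrays and 3.43 to 4.87 on control arrays. Its difference of -1.01 (limma adjusted p = 0.0095) was -0.08 after quantile normalisation (0.88).

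Klk1, the tissue kallikrein that releases kinin from kininogen, was as bright as the enzymes. It had 10.14, 3.71, 4.46 and 6.30 on anti-VEGF arrays 1 to 4, against 11.47, 10.85, 9.41 and 11.30 on control arrays 1 to 4. The groups overlapped through anti-VEGF array 1 and control array 3. The difference was -4.61 (SE 1.14, limma adjusted p = 0.0062, and 0.029 after quantile normalisation).

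The 2 ends of the kallikrein cluster are described separately. The 11 Klk1b genes, mouse paralogs of Klk1 that lie beside it, were all called lower by limma, with a median difference of -1.64, and 8 of the 11 were called lower after quantile normalisation with a median of -1.62. Of the 11 genes Klk4 to Klk14 at the other end, known mainly from skin, prostate and brain, 5 were called lower with a median of -0.58, and 0 after quantile normalisation with a median of -0.22. Over all genes 46.6% were called lower on the deposited values and 4.41% after quantile normalisation, so the count for Klk4 to Klk14 lies near the share over all genes, and the difference between the ends of the cluster was not tested. Klk1b5, the neighbour of Klk1, was the brightest of the Klk1b genes, with 8.81, 4.39, 4.22 and 5.43 in anti-VEGF tumours, against 10.25, 9.25, 7.56 and 10.22 in control tumours. Its difference was -3.60 (SE 0.94, limma adjusted p = 0.0078, and 0.024 after quantile normalisation). The other Klk1b genes were dimmer, with control means of 5.47 for Klk1b21 to 7.24 for Klk1b9, and differed by -2.42 (Klk1b9) to -1.24 (Klk1b7-ps). Klk1b16 had the smallest p of the lower kallikreins, with 3.68 to 4.58 in anti-VEGF tumours and 5.25 to 6.19 in control tumours (difference -1.85, SE 0.27, limma adjusted p = 0.0011). Anti-VEGF array 1 was the highest of its group for all 11 Klk1b genes, and also for 9 of the 11 genes Klk4 to Klk14. The order of the other arrays was not shared, array 4 being second for 4 of 11 Klk1b genes. Klk8 was the kallikrein with the smallest p among those higher, with 4.90 to 5.48 in anti-VEGF tumours and 4.54 to 5.16 in control tumours, and did not pass (difference 0.28, limma adjusted p = 0.24), though it passed after median centring (0.67, 0.0094) and cyclic loess (0.57, 0.028). Klk1b genes are closely similar to Klk1 and to each other in sequence, so the probe sets may share signal, and this was not tested.

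**Figure D4:**
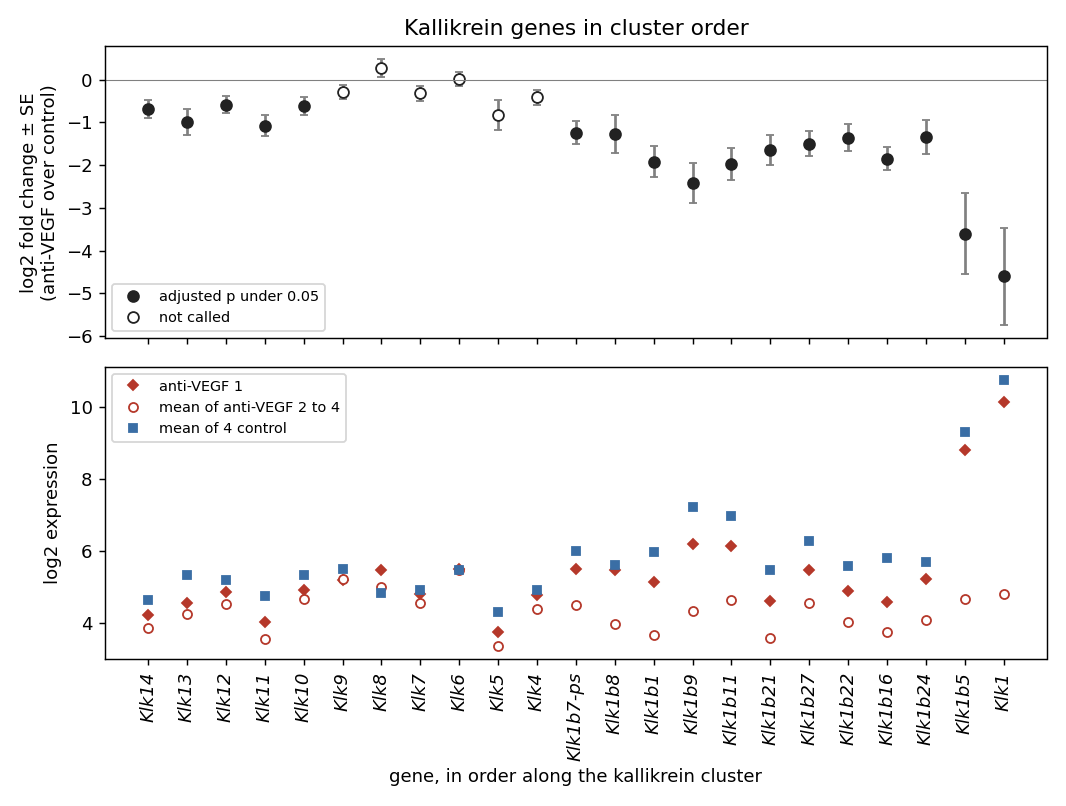
Log2 difference (anti-VEGF over control, with SE) of 23 kallikrein genes in their order along the cluster, top, with filled circles at a limma adjusted p under 0.05, and their log2 expression, bottom, on anti-VEGF array 1, as the mean of anti-VEGF arrays 2 to 4 and as the mean of the 4 control arrays. The differences are -4.61 for Klk1 and -3.60 for Klk1b5 and lie between 0.28 and -1.08 for Klk4 to Klk14.

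The promoters of Klk1 and Klk1b5 are shown because both genes were bright in control tumours and lie side by side. In a local alignment of the 250-base windows to that of Klk1, the best match covered 147 to 205 bases at 75.5% to 85.9% identity for 10 Klk1b genes, with Klk1b5 at 85.9% over 156 bases. For Klk4 to Klk14 it covered only 16 to 43 bases, at 67.4% to 88.9%. An end-to-end alignment, which was run first, did not separate them (52.4% to 66.8% of the window identical for Klk1b genes and 56.0% to 62.0% for Klk4 to Klk14), and the matching stretches lie at different distances from the annotated starts. Capitals mark the 4 runs of at least 12 aligned bases that are identical in the pair, the longest of 16.
Klk1, chr7:44225110-44225359, plus strand: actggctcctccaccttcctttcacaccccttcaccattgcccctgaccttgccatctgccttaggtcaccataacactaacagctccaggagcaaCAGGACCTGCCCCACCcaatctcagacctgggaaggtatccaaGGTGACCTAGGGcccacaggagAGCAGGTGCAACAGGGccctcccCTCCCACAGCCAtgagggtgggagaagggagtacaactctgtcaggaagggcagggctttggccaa
Klk1b5, chr7:44216224-44216473, plus strand: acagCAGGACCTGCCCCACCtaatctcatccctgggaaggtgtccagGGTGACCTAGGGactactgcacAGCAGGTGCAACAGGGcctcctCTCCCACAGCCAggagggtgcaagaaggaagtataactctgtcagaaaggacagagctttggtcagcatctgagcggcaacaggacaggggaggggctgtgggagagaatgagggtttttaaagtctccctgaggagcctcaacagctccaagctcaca

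Of the 77 non-pancreatic genes, 21 belonged to the lowest tertile by level and 56 did not. The calls of the non-pancreatic genes depended on the scaling of the arrays. Over the 77 non-pancreatic genes limma called 57 lower and 1 higher (median -0.77), where 46.6% and 19.1% of all genes were called, and 9 lower and 0 higher after quantile normalisation (median -0.20), where 4.41% and 7.4% were called. The 9 were 8 Klk1b genes and Amy1. Leaving out the Klk1b genes and Amy1, a choice made after the values were seen, 45 of 65 were called lower and 1 higher, and 0 after quantile normalisation.

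**Figure D5:**
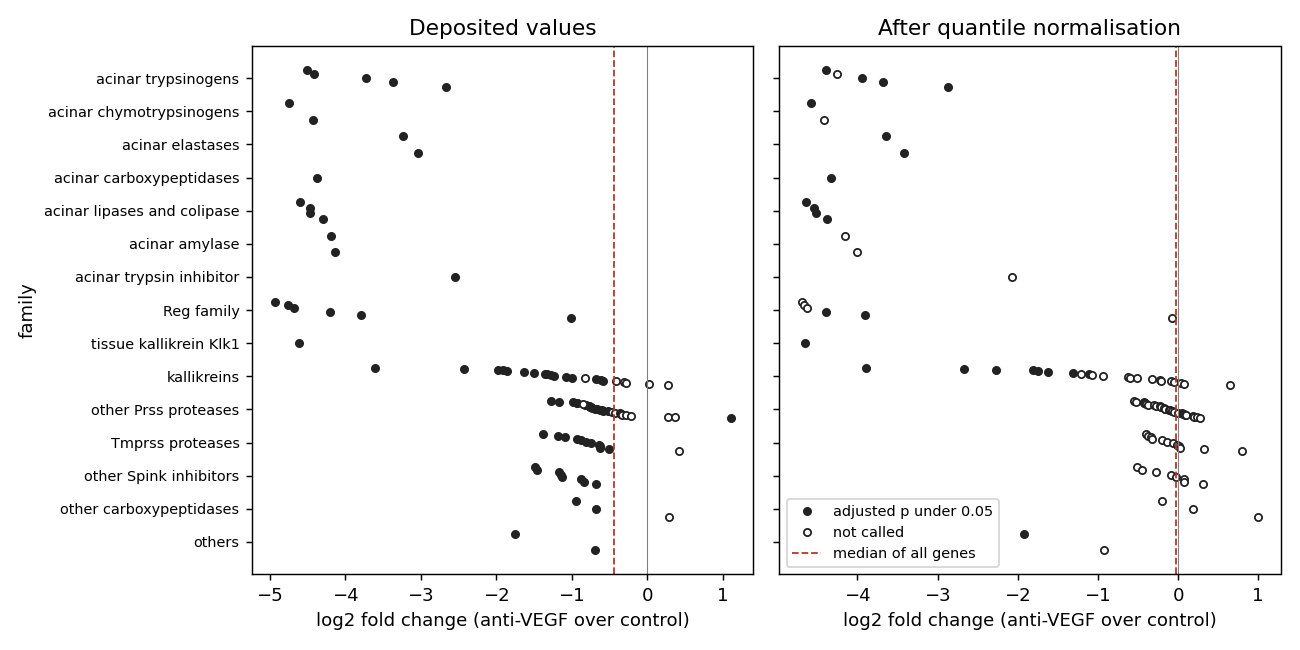
Log2 difference (anti-VEGF over control) of each of the 101 genes by family, on the deposited values, left, and after quantile normalisation, right, with filled circles at a limma adjusted p under 0.05 and the median of all genes as a dashed line (-0.44 and -0.02). Most acinar genes lie near -4 in both panels, while the Tmprss and Spink genes move to the dashed line on the right.

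Tmprss genes code for serine proteases anchored in the cell membrane. Of 12, 11 were called lower on the deposited values, where 46.6% of all genes and 90.3% of the lowest tertile were called lower, and 5 of the 12 belong to that tertile. After quantile normalisation 0 of 12 were called, where 4.41% of all genes were called lower and 7.4% higher. Tmprss11d, an airway protease, had 2.09 to 2.33 on anti-VEGF arrays and 3.06 to 3.69 on control arrays, without overlap. Its difference was -1.19 (SE 0.18, limma adjusted p = 0.0011) and turned to 0.03 after quantile normalisation (0.90). Tmprss6, the liver protease that acts on iron metabolism, differed by -0.51 (limma adjusted p = 0.025), and the call was lost after quantile normalisation (-0.38, 0.093) and in 5 of the 8 fits that left out 1 array. Tmprss11e had 4.61, 5.37, 5.23 and 5.04 in anti-VEGF tumours and 4.37, 4.58, 4.80 and 4.82 in control tumours, and its difference of 0.42 (limma adjusted p = 0.091) was 0.57 and passed without anti-VEGF array 1 (0.029). It was 0.80 after quantile normalisation and did not pass (0.062), and it passed after cyclic loess (0.78, 0.045), after median centring (0.81, 0.020) and with array weights (0.56, 0.028). Tmprss15, enteropeptidase, the gut enzyme that activates trypsinogen, was looked up for its role after the values were seen. It was at the dim end on every array, with 1.92 to 2.11 in anti-VEGF tumours and 2.84 to 3.90 in control tumours. Its difference was -1.39 (limma adjusted p = 0.0020), and -0.20 after quantile normalisation (0.43).

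Of 30 other Prss genes, 18 were called lower and 1 higher on the deposited values, where 46.6% and 19.1% of all genes were called. After quantile normalisation 0 were called in either direction, where 4.41% of all genes were called lower and 7.4% higher. The gene called higher was Prss22, a serine protease of epithelia and also the brightest of this family. It had 7.89, 8.11, 8.0 and 8.25 on anti-VEGF arrays 1 to 4, against 7.37, 6.90, 6.12 and 7.43 on control arrays 1 to 4. The groups did not overlap, and its difference of 1.11 (SE 0.27, limma adjusted p = 0.0062) was 0.24 after quantile normalisation (0.33). Here anti-VEGF array 1 lay with the other 3 arrays of its group, unlike its place for the acinar genes. Prss37, a testis gene, had 2.52 to 2.81 in anti-VEGF tumours and 3.61 to 4.15 in control tumours, with a difference of -1.27 (limma adjusted p = 0.00097) that was -0.21 after quantile normalisation (0.42).

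The other Spink genes, inhibitors of serine proteases in skin and reproductive tract, all belonged to the lowest tertile by level. Of 8, 8 were called lower, as were 90.3% of the genes of that tertile. After quantile normalisation 0 were called, with a median of -0.05, where 4.41% of all genes were called lower. Spink14 had 2.70 to 2.79 in anti-VEGF tumours and 3.64 to 4.04 in control tumours, and its difference was -1.14 (limma adjusted p = 0.00099), and -0.08 after quantile normalisation (0.70). Spink8, the brightest of them on average, differed by -0.68 on the deposited scale (limma adjusted p = 0.023, and 0.0512 to 0.0629 without anti-VEGF array 2, 3 or 4) and by 0.07 after quantile normalisation. Cpa3, the carboxypeptidase of mast cells, had 3.28, 4.23, 4.94 and 4.93 in anti-VEGF tumours, against 4.09, 4.10, 4.14 and 3.92 in control tumours. It did not pass with all arrays (difference 0.28, limma adjusted p = 0.45) or after quantile normalisation (0.99, 0.082), and passed as higher without anti-VEGF array 1, at 0.64 (0.030). Cpa5 differed by -0.95 (limma adjusted p = 0.0020), and by -0.20 after quantile normalisation (0.34). Clpsl2, a colipase-like gene, had 5.07 to 5.46 in anti-VEGF tumours and 5.37 to 6.49 in control tumours, and its difference of -0.69 (limma adjusted p = 0.033) lost its call after quantile normalisation (-0.93, 0.16) and in 5 of the 8 fits that left out 1 array.

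Acinar genes outside these families were also called lower. A list of 22 held 17 measured genes, and 17 of 17 were called lower with a median of -2.02, where 46.6% of all genes were called lower. After quantile normalisation 10 of 17 were called with a median of -1.29, where 4.41% of all genes were called, and the median was -1.35 after cyclic loess. Their mean level was 6.59, 4.25, 4.29 and 4.95 on anti-VEGF arrays 1 to 4, against 7.86, 7.05, 6.43 and 7.77 on control arrays 1 to 4, so that anti-VEGF array 1 was again the closest of its group to the control arrays. Zg16, a zymogen granule protein, had 9.82, 4.36, 4.82 and 6.62 in anti-VEGF tumours and 11.79, 10.70, 9.94 and 11.41 in control tumours. The acinar transcription factor Ptf1a had 3.60 to 3.90 in anti-VEGF tumours and 4.48 to 5.54 in control tumours. Array medians were 4.51 to 4.73 and 4.86 to 5.16. Ptf1a differed by -1.21 (limma adjusted p = 0.0022), and by -0.69 after quantile normalisation (0.058). Rbpjl and Bhlha15, transcription factors of the same list, were still called after quantile normalisation (-0.79 and -1.15, limma adjusted p = 0.019 and 0.015). Nr5a2, another, was not (-0.60, 0.24). Of 14 measured islet genes 9 were called lower and 1 higher on the deposited values, where 46.6% and 19.1% of all genes were called, and 1 lower and 0 higher after quantile normalisation, where 4.41% and 7.4% were called. The gene called after quantile normalisation was Ins2, which codes for insulin, with 5.71, 5.33, 5.17 and 5.36 in anti-VEGF tumours and 7.0, 5.95, 6.04 and 6.75 in control tumours. Islet means were 4.70 to 4.94 on anti-VEGF arrays and 5.09 to 5.40 on control arrays. Of 8 salivary gland genes other than Amy1, 7 were called lower, where 46.6% of all genes were called lower. After quantile normalisation 1 was called lower, where 4.41% of all genes were. Of these 8, 6 belong to the lowest tertile, of which 90.3% were called lower on the deposited values. They had means of 3.27 to 3.46 on anti-VEGF arrays and 4.02 to 4.59 on control arrays. The part of pancreatic tissue or RNA in the level of the acinar genes was not tested, and the source of these transcripts cannot be told from these arrays.

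Serine proteases outside the families chosen by symbol are given for comparison. Of 27 measured, 12 were called lower and 7 higher, with a median of -0.04, where 46.6% of all genes were called lower and 19.1% higher. After quantile normalisation 1 was called lower and 0 higher, where 4.41% and 7.4% of all genes were called. These counts lie near the shares over all genes.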

How the data were processed

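The values of the 8 arrays are log2 expression, deposited by the authors after robust multi-array average (RMA) normalisation. R is named for this step in the study's methods, and the submitters' processing notes add Transcriptome Analysis Console beside RMA. The choice of probe sets in the table is not given in the sources used here. Of 13266 probe sets, 11743 had 1 symbol in the platform annotation, 800 several and 723 none. The probe set with the highest mean stood for each gene, which gave 11667 genes, of which 11595 were found in the RefSeq gene table. 3 probe sets with several symbols that met the symbol rule were left out. Arrays have no depth, and their number limits the precision.

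limma 3.58.1 (lmFit, eBayes; R 4.3.3) compared the groups with no other term and no filter on dim genes, and a gene was called at a Benjamini-Hochberg adjusted p under 0.05 over all genes. The acinar minus non-pancreatic level was given without a test. The members and lists were chosen with earlier results of these data known. Every acinar and shared gene was named, and in each other family the brightest gene and the gene of smallest p in each direction, or all genes of a family under 3. Alternatives were quantile normalisation, cyclic loess, median centring, no lowest tertile, probe sets of a gene averaged, the replicate number as a block, single arrays omitted, eBayes with trend and robust, array weights and an exact Mann-Whitney U test. Tested on simulated data for this comparison over 11667 genes, with 50 genes changed at each size, limma recovered 49 at a log2 change of 4, 46 at a change of 2, 21 at 1 and 0 at 0.5. Among 11467 genes left alone it made 6 calls. The simulated noise of a gene had the same SD in both groups and did not carry the unequal spread of the real arrays. These counts therefore do not measure the error rate on the real arrays. Promoters were compared by local alignment, chosen after an end-to-end alignment had been seen. Python 3.11.15 and matplotlib 3.10.9 drew the figures.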

Additional observations from a re-analysis of the deposited data

How the results depend on the processing

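The count of acinar genes called lower (17 of 17) was 14 to 17 with 1 array left out, 12 to 17 under the other limma alternatives, and 8 by an exact Mann-Whitney U test, whose smallest unadjusted p with 4 against 4 arrays is 0.0286. Their direction was lower under every limma alternative. The non-pancreatic count of 57 lower was 44 to 60 with 1 array left out, 9 after quantile normalisation, 14 after cyclic loess and 29 after median centring. The count of 1 higher was 1 to 3 with 1 array left out (3 without anti-VEGF array 1, 2 without control array 4), 0 after quantile normalisation, 2 after cyclic loess, 6 after median centring, 2 with array weights, and 3 without anti-VEGF array 1 and control array 3 together, a setting chosen after seeing the data. Over all genes, 5437 lower and 2232 higher became 515 and 863 after quantile normalisation, 1107 and 1322 after cyclic loess, and 2979 and 3665 after median centring, 4273 to 5799 and 1697 to 2419 with 1 array left out, and 1870 lower without the lowest tertile. Spink8 turned to 0.069 after quantile normalisation and 0.15 after cyclic loess, and Tmprss11d to 0.026 and 0.054. The cause was not tested. The acinar minus non-pancreatic difference of -3.13 was -4.10 to -2.44 with 1 array left out, -3.61 after quantile normalisation and -4.50 after cyclic loess. Of 38 named genes, quantile normalisation ended the call of 15 beside Spink8 and Tmprss11d.

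Same-numbered tumours had deviations correlated at 0.19, 0.13, -0.04 and 0.16, and control arrays 2 and 3 matched other numbers best, so the numbers were not taken as pairs. With the replicate number as a block, 5422 genes were lower and 2159 higher, 17 acinar and 59 non-pancreatic genes were lower, and no call of the 38 named genes changed.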
